A study of Mus musculus with 64 samples.

Results

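Of the 16 hippocampus libraries of this mouse study, 5 carried high levels of Ttr, the transthyretin gene and a marker of the choroid plexus; they are described here with the genes that followed Ttr. Ttr stood above 10 on the deposited log2 scale in 5 libraries, from UCMS animals 2 and 3 and control animals 5, 6 and 8, and below 10 in the other 11, from 6 UCMS and 5 control animals. The series held 64 libraries of RNA from hippocampus, prefrontal cortex, hypothalamus and whole blood. UCMS animals had gone through Unpredictable Chronic Mild Stress, a 9-week schedule used as a model of depression, and control animals had not been stressed. All animals were male BALB/c mice of 28 weeks, with no transgene or drug in the labels, and there were 8 UCMS and 8 control animals in each brain region. Brains were collected 14 to 16 hours after stress ended. Animals are called here by the number of their brain libraries. The labels tie each number to the same animal code in hippocampus, prefrontal cortex and hypothalamus, so that the libraries of 1 animal could be set side by side; for UCMS animals 6, 7 and 8 that code carries a different number.

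The choroid plexus is a sheet of epithelium in the brain ventricles that makes cerebrospinal fluid. Its cells secrete transthyretin, a carrier of thyroid hormone, and move ions, water and nutrients between blood and fluid through channels, transporters and tight junctions. In the mouse, the plexus of the lateral ventricle lies along the fimbria, at the edge of the hippocampus, and Ttr is widely used to mark it.

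Ttr was 10.5 and 12.8 in UCMS animals 2 and 3, and 12.2, 10.1 and 11.6 in control animals 5, 6 and 8. In the other 11 libraries it ran from 4.85 to 7.99, at 4.90 to 7.46 in UCMS animals and 4.85 to 7.99 in control animals. No library fell in the 2.13 log2 units between control animal 6, just inside the threshold, and control animal 3, just outside it. The Ttr-high libraries averaged 11.4 ± 1.12 (SD, n = 5) and the others 6.30 ± 1.06 (SD, n = 11), a difference of 5.14 log2 units or 35.3-fold. Because Ttr chose the groups, these levels are a description and Ttr was given no test between them.

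The Ttr-high libraries fell on both treatments. They were 2 of 8 UCMS libraries and 3 of 8 control libraries (two-sided Fisher's exact test, p = 1.0). Ttr averaged 7.39 ± 2.81 in UCMS hippocampus and 8.43 ± 2.61 in control hippocampus (SD, n = 8 each). The difference, UCMS minus control, was -1.05 log2 units with a standard error of 1.23, and did not pass limma's test (Benjamini-Hochberg adjusted p = 0.990). It was -1.81 without UCMS animal 3 and -0.50 without control animal 5.

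**Figure D1:**
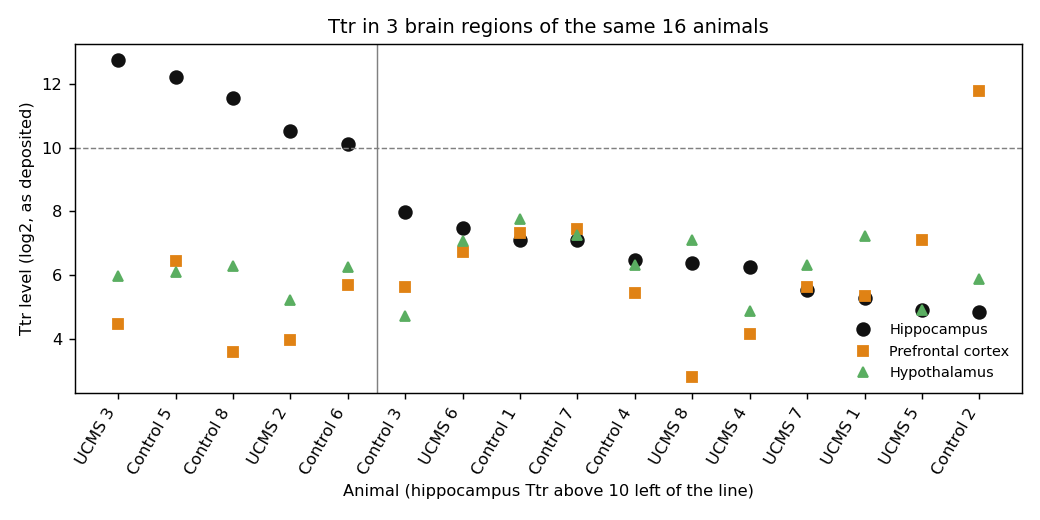
Ttr level (log2, as deposited) in hippocampus, prefrontal cortex and hypothalamus of each of the 16 animals, in descending order of the hippocampus level; the dashed line is the threshold of 10. The 5 hippocampus libraries left of the vertical line lie between 10.1 and 12.8, while the same animals' prefrontal cortex and hypothalamus libraries lie between 3.59 and 6.44.

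In the other regions of the same animals Ttr did not separate the groups. In prefrontal cortex it was 3.96, 4.47, 6.44, 5.69 and 3.59 in UCMS animals 2 and 3 and control animals 5, 6 and 8, and ran from 2.79 to 11.8 in the other 11 animals. The means were 4.83 ± 1.20 (SD, n = 5) in the 5 animals and 6.30 ± 2.30 (SD, n = 11) in the other 11, a difference of -1.47 (two-sided exact permutation test over 4368 arrangements, p = 0.210, adjusted over 2 regions 0.421). In hypothalamus the 5 animals averaged 5.96 ± 0.433 (SD, n = 5) and the other 11 averaged 6.31 ± 1.08 (SD, n = 11), a difference of -0.35 (exact permutation test, p = 0.504, adjusted 0.504). The highest prefrontal cortex value, 11.8, belonged to control animal 2, whose hippocampus value of 4.85 was the lowest of the 16.

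Other genes were compared between the 5 Ttr-high and the 11 other hippocampus libraries with treatment as a covariate, in limma across 14014 genes with Ttr left out. Of these, 22 genes passed at a Benjamini-Hochberg adjusted p of 0.05, which is 0.157% of those tested. All 22 were higher in the Ttr-high libraries and 0 were lower, while 1142 genes (8.15%) had an unadjusted p under 0.05, 596 higher (4.25%) and 546 lower (3.9%). Lists of choroid plexus genes by role held 16 of the 22. For 21 of the 22, all 5 Ttr-high libraries lay above all 11 others, which held for 0.243% of the genes tested. With the genes of lowest level included, 0.295% of genes had this pattern and 0.0257% the opposite one, with all 5 below all 11. The 22 were chosen for their difference on this same split, so the separation of 21 of them is not separate evidence. These are bulk libraries of dissected tissue, so a lower level from fewer cells of a type and from less RNA per cell cannot be told apart.

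The differences of the 22 genes ran from 0.45 to 3.79 log2 units, or 1.36-fold to 13.8-fold, with a median of 1.37. In 8 of them the 5 Ttr-high libraries came in the same order as for Ttr itself, with UCMS animal 3 highest, then control animals 5 and 8, UCMS animal 2 and control animal 6, an order found in 1.31% of the genes tested. The 10% of genes with the lowest mean level were left out of this fit, and with them several defining genes of the plexus. That mean was taken over both groups, with a cut at 3.18. Sostdc1, Cldn2, Kcnj13, C1qtnf5, Col8a1, Mfrp, Ace and Mdfic averaged 2.29 to 3.16 in the other libraries. These members of the 22 passed the filter only through their level in the Ttr-high libraries. With no gene left out, 38 of 15572 genes (0.244%) passed, all of them higher and the 22 among them.

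The promoters of 3 genes of this group are shown because, within the 22 genes, they are the choroid members with the largest rises that have an entry in the RefSeq promoter table. Each runs from 250 bases before to 50 bases after the start, 5′ to 3′ on the gene's strand, in build GRCm38.p6. Cldn2 lies at chrX:139800558-139800857 on the plus strand, Kcnj13 at chr1:87394680-87394979 on the minus strand and Mfrp at chr9:44101520-44101819 on the plus strand. Capitals mark a match to TAATCC or its reverse complement GGATTA, the core bound by Otx homeodomain factors.
Cldn2: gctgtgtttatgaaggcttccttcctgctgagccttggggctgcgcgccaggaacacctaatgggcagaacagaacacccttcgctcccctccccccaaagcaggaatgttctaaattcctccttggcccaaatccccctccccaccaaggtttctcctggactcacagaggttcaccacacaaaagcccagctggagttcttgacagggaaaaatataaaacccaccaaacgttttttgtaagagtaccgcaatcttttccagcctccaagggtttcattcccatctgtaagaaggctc
Kcnj13: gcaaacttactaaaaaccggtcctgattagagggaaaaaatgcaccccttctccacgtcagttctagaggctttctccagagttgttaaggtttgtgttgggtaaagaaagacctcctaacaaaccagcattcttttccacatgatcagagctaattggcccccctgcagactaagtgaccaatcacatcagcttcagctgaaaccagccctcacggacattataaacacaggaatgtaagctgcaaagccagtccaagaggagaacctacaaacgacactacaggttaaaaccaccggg
Mfrp: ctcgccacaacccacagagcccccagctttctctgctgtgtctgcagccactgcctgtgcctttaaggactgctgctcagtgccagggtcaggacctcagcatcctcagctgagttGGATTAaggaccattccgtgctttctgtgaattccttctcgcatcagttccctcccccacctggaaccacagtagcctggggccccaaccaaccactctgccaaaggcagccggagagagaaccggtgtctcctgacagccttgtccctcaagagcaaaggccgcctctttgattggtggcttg
Of the 16 choroid members that passed, 14 had an entry, with 22 promoters between them. TAATCC on either strand was in 3 of the 22 promoters (13.6%), those of Mfrp, Ace and Igf2, against 7.06% of 32851 promoters in the table. GTAAACA, a forkhead motif, was in 1 of the 22 (4.55%) against 3.65% of all promoters, and GTTGCC, a core of RFX sites, in 1 (4.55%) against 4111 of the 32851. A match is a string of letters in this window and not a measured site.

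Among the secreted and carrier proteins, 8 members were tested and all 8 had higher values in the Ttr-high libraries, as 49.9% of all genes tested had, with 6 past the threshold and a median difference of 1.37, against a median of -0.000259 over all genes tested. Sostdc1, a secreted antagonist of BMP and Wnt signalling (chr12:36314139-36318452, plus strand, GRCm38), was 5.79 and 6.99 in UCMS animals 2 and 3 and 7.18, 5.04 and 6.36 in control animals 5, 6 and 8. In the other 11 libraries it ran from 1.24 to 3.56 with a median of 2.60. The groups did not overlap, and the difference was 3.79 ± 0.379 (SE; limma adjusted p = 0.00019).

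Enpp2 encodes autotaxin, the secreted enzyme that makes lysophosphatidic acid. It was 7.09 and 7.95 in UCMS animals 2 and 3 and 8.30, 6.47 and 7.62 in control animals 5, 6 and 8, against a lowest of 5.08, a median of 5.41 and a highest of 5.87 in the other libraries. Control animal 6 was the lowest of the 5, as it was for Ttr, and still lay above all the others. The difference was 2.02 ± 0.224 (SE; limma adjusted p = 0.000323).

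Igf2, a growth factor that the plexus releases into the fluid, was 5.57 and 6.81 in UCMS animals 2 and 3 and 6.45, 5.36 and 5.96 in control animals 5, 6 and 8. Its other 11 values lay between 4.001 and 4.985, below all 5 (difference 1.34 ± 0.202, SE; limma adjusted p = 0.00506). Igfbp2, which binds insulin-like growth factors, differed by 1.08 ± 0.182 (SE; limma adjusted p = 0.0148). Col8a1, a chain of type VIII collagen, rose by 1.87 and Ace, the angiotensin-converting enzyme, by 1.40. The remaining tested members were Clu, an extracellular chaperone, at 0.21 and Trf, the iron carrier transferrin, at 0.0007, and neither passed. Both genes are also known to be expressed by glia, whose part in these values was not tested. Exons of Igf2 share 62.8% of their length with the gene model Gm49394 on the same strand, so reads in the shared part cannot be told apart.

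**Figure D2:**
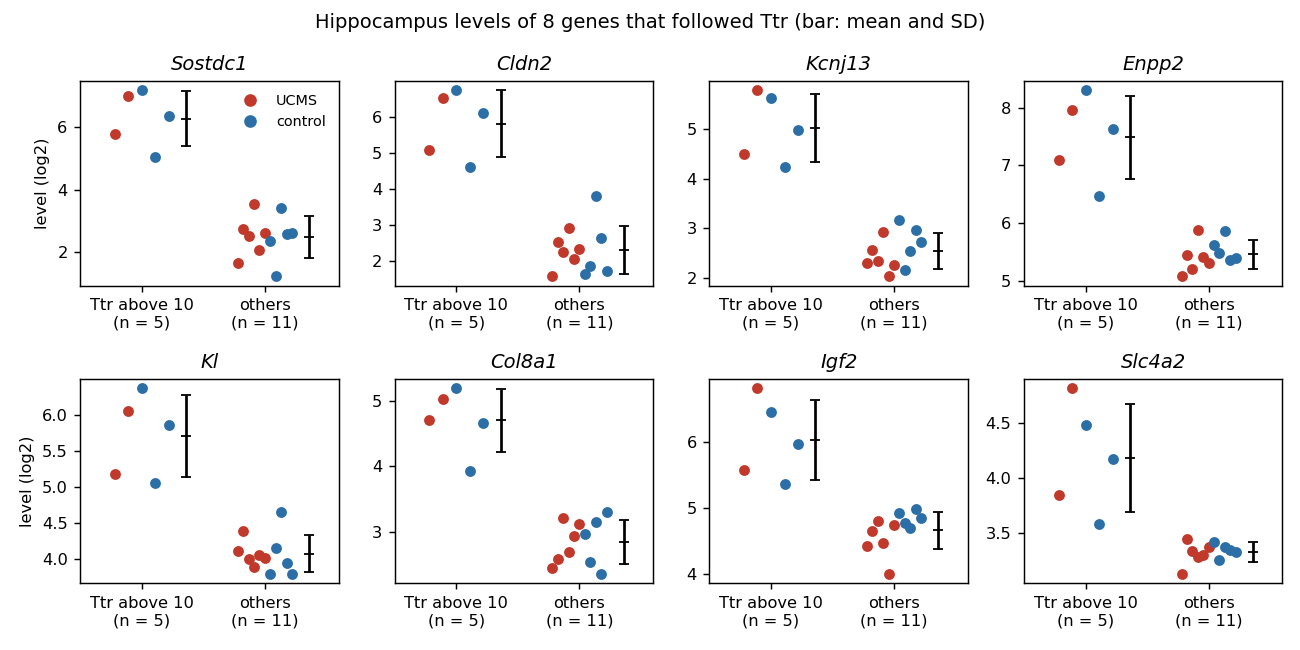
Levels (log2, as deposited) of 8 genes in the 5 Ttr-high hippocampus libraries and the 11 others; each point is a library, red for UCMS and blue for control, and the bar gives the mean and SD. In each panel all 5 Ttr-high points lie above all 11 others, from Sostdc1 with a difference of 3.79 to Slc4a2 with 0.86.

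Of the ion, water and solute transport genes, 19 were tested; 18 had higher values, 5 passed, and the median difference was 0.37. Kcnj13, the inward rectifier potassium channel Kir7.1 of the apical membrane, was 4.50 and 5.79 in UCMS animals 2 and 3 and 5.63, 4.24 and 4.99 in control animals 5, 6 and 8. The other libraries ran from 2.02 to 3.17 with a median of 2.53, and the groups did not overlap. The difference was 2.47 ± 0.246 (SE; limma adjusted p = 0.00019). Its exons share 623 bases with Gigyf2 on the opposite strand, and Gigyf2 differed by -0.10. The libraries were directional, but no source used here states whether counting used the strand.

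The other 4 that passed move sugar, acid, bicarbonate and copper. Slc2a12, a glucose transporter, rose by 1.12, Car12, a membrane-bound carbonic anhydrase, by 1.07, Slc4a2, a chloride-bicarbonate exchanger, by 0.86, and Slc31a1, the copper importer, by 0.52. Their adjusted p-values by limma lay between 0.00421 and 0.0165. Slc12a2, the sodium-potassium-chloride cotransporter that the plexus shares with other brain cells, differed by 0.06, and Atp1b1, a sodium pump subunit also abundant in neurons, by 0.01. Neither passed, and the part of those other cells was not tested.

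Aqp1, the water channel of the plexus epithelium, followed Ttr only in part. It was 3.74 and 5.66 in UCMS animals 2 and 3 and 5.21, 3.22 and 4.50 in control animals 5, 6 and 8, and its difference of 1.69 did not pass (limma adjusted p = 0.605). In 3 of the other libraries, UCMS animal 6 and control animals 1 and 7, it was 5.69, 5.09 and 5.31, while the remaining 8 lay between 1.10 and 2.16. Those 3 libraries also held the beta-globin gene Hbb-bs at 14.4, against 4.79 to 9.45 in all the rest, and Aqp1 is known as a red cell protein too. Without these 3 libraries the Aqp1 difference was 2.76 (limma adjusted p = 0.0119). Whether red cells had a part in these Aqp1 values was not tested.

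Tmem72, Kcne2, Slc4a5 and Clic6 were too low on average for the filter and passed with no gene left out. Tmem72, a membrane protein used as a marker of the plexus, was 5.32 and 6.60 in UCMS animals 2 and 3 and 6.54, 4.79 and 6.45 in control animals 5, 6 and 8, against 0.45 to 3.26 in the others. Its difference of 4.31 was the largest of the 38 genes (limma adjusted p = 0.000119). Kcne2, a potassium channel subunit, differed by 3.74, Slc4a5, a sodium-bicarbonate cotransporter of the apical membrane, by 3.60, and Clic6, a chloride intracellular channel protein, by 2.51.

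Among the receptors and signalling genes 13 were tested, 12 had higher values and 2 passed, with a median difference of 0.38. Kl encodes klotho, the co-receptor of FGF23, which the plexus expresses at high level. It was 5.19 and 6.05 in UCMS animals 2 and 3 and 6.37, 5.06 and 5.86 in control animals 5, 6 and 8, and 3.79 to 4.66 in the others, a difference of 1.63 ± 0.192 (SE; limma adjusted p = 0.000512). Prlr, the prolactin receptor, rose by 1.46 (limma adjusted p = 0.0120). Here the order was not that of Ttr: control animal 5 was highest at 7.97, control animal 8 stood at 7.36, and UCMS animal 3, first for Ttr, stood at 6.73.

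Folr1, the folate receptor of the plexus, passed with no gene left out. It was 3.79 and 5.69 in UCMS animals 2 and 3 and 5.46, 3.52 and 4.66 in control animals 5, 6 and 8, the same order as Ttr, against a lowest of 0.17, a median of 0.94 and a highest of 2.33 in the others. The difference was 3.41 (limma adjusted p = 0.00118). Htr2c, the serotonin receptor that is also expressed by neurons, differed by 0.42 and did not pass (limma adjusted p = 0.244). What neurons added to its level was not tested.

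Junction, cytoskeleton and other epithelial genes numbered 12 tested, 10 with higher values and 3 that passed, with a median of 0.53. Cldn2, the claudin that forms cation and water pores in leaky tight junctions, was 5.08 and 6.51 in UCMS animals 2 and 3 and 6.73, 4.61 and 6.11 in control animals 5, 6 and 8. The others ran from 1.57 to 3.79 with a median of 2.25, and the difference was 3.51 ± 0.382 (SE; limma adjusted p = 0.000308). Cgnl1, a junction protein of the cingulin family, rose by 0.76. Cldn1, a barrier claudin, differed by 1.03 with no overlap of the groups and did not pass (limma adjusted p = 0.0873).

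Mfrp, a membrane protein best known from the retinal pigment epithelium, was 4.24 and 6.20 in UCMS animals 2 and 3 and 5.92, 4.16 and 5.03 in control animals 5, 6 and 8. The others ran from 2.60 to 3.63, below all 5, and the difference was 2.23 ± 0.284 (SE; limma adjusted p = 0.00126). C1qtnf5, a secreted protein, rose by 1.93, but 100% of its exon bases (1589) lie within exons of Mfrp on the same strand (chr9:44107245-44109187 inside chr9:44101729-44109187, GRCm38). Reads in these shared bases cannot be told apart, and the 2 genes are not separate evidence.

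None of the 5 tested transcription factors of the plexus list passed, and 3 had higher values. Msx1, a homeobox gene, differed by 0.96 (limma adjusted p = 0.0676). Foxj1, the regulator of motile cilia, was 4.81 and 6.02 in UCMS animals 2 and 3 and 5.51, 4.75 and 4.19 in control animals 5, 6 and 8, overlapping the 3.92 to 5.41 of the others (difference 0.45, limma adjusted p = 0.628; 0.17 without UCMS animal 3). Otx2, which the plexus needs in development and adult life, was too low on average for the filter. It was 2.18 in control animal 6 and 4.28 to 5.44 in the other 4 Ttr-high libraries, against 1.30 to 4.89 in the 11 others, so the groups overlapped (difference 1.73, adjusted p = 0.515 with no gene left out).

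Over all choroid lists together, 57 of 75 members found in the table passed the filter on low values. Of these 57, 51 had higher values, 16 passed and 41 had an unadjusted p under 0.05, with a median difference of 0.43. With no gene left out, 69 of 75 had higher values, against 50.5% of all genes, and 25 passed, with a median of 0.55. The summed level of the lists, as log2 of the sum of the members' values taken off the log scale, was 11.7 to 12.3 in the Ttr-high libraries and 11.4 to 11.6 in the others.

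**Figure D3:**
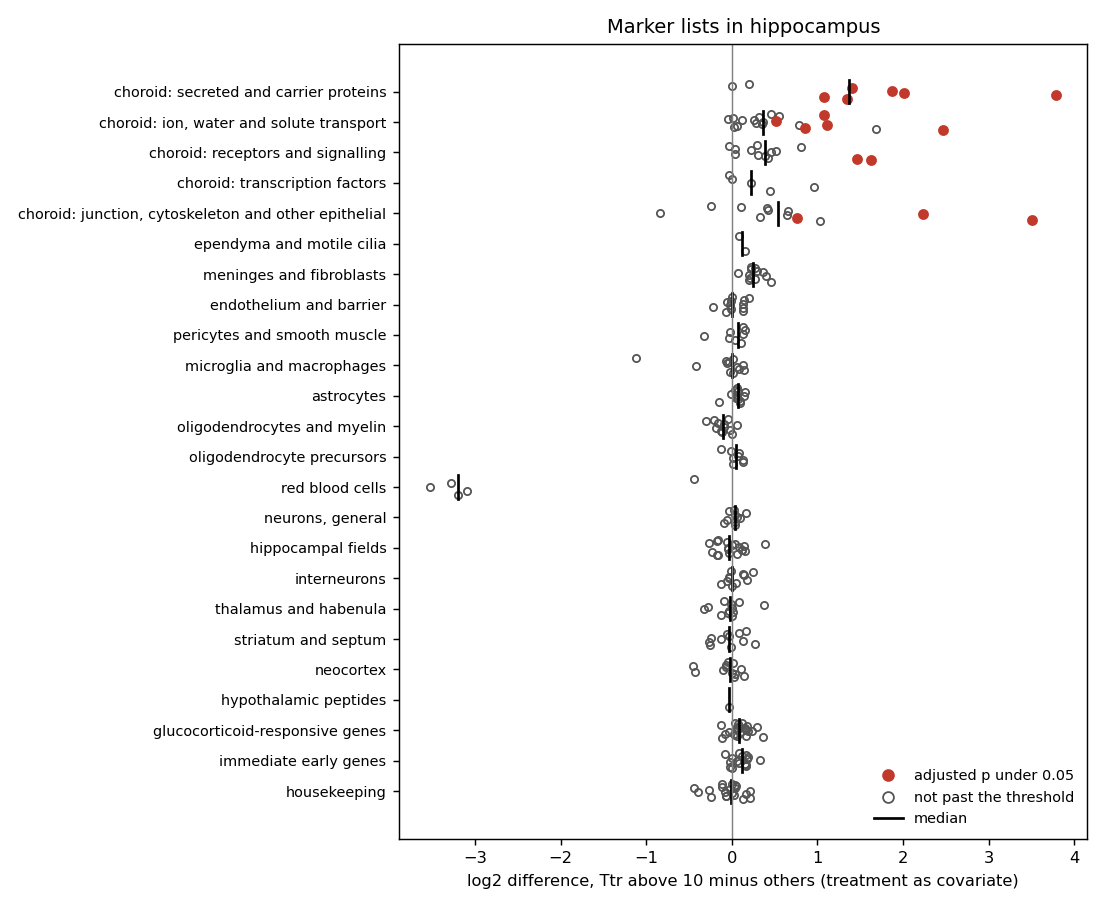
Log2 difference of each tested member of 24 marker lists, Ttr-high minus other hippocampus libraries with treatment as covariate; filled points passed an adjusted p of 0.05 and bars are list medians. The filled points all lie on 4 of the 5 choroid lists at the top, with none among the transcription factors, and the 4 lowest points are red blood cell genes.

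Outside the choroid lists, 0 members of any other list passed in limma. Meninges and fibroblast genes had higher values in 12 of 12 tested members, with a median of 0.25 and 4 at an unadjusted p under 0.05. Dcn, a proteoglycan of fibroblasts, was 5.22 and 5.33 in UCMS animals 2 and 3 and 5.30, 5.39 and 5.59 in control animals 5, 6 and 8, all above the 4.09 to 5.19 of the others (difference 0.45, limma adjusted p = 0.337). The summed level of all 18 of the list's members in the table was 9.50 to 9.62 in the Ttr-high libraries and 8.95 to 9.50 in the others. The part of meninges in the result was not tested.

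Cilia genes of the ependyma, the neighbouring lining of the ventricles, were mostly near the bottom of the table: 9 of 30 list symbols were found and 2 were tested. Their summed level was 6.03 to 6.70 in the Ttr-high libraries and 5.83 to 6.79 in the others. Endothelial genes had 6 higher and 6 lower members, microglial genes 6 and 6, and the median differences of astrocyte, neuronal and hippocampal field genes were 0.07, 0.03 and -0.03. Hippocampal field markers summed to 10.3 to 10.4 in the Ttr-high libraries and 10.2 to 10.6 in the others. Myelin genes had lower values in 11 of 12 members, with a median of -0.11, and 0 of them had an unadjusted p under 0.05.

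Red blood cell genes had lower values in 5 of 5 members, with a median of -3.20, and none passed. Hbb-bs was 4.82 to 6.12 in the 5 Ttr-high libraries. It was 14.4 in each of UCMS animal 6 and control animals 1 and 7 and reached 9.45 in the rest. All 3 hemoglobin-rich libraries were thus among those with low Ttr. Without them 21 genes passed, 19 of them among the 22.

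The 6 genes that passed and stand on no list were Col8a2, another chain of type VIII collagen, C1qtnf5, Itpripl1, Mdfic, Angptl2 and Ormdl2. Col8a2 was 5.91 and 7.28 in UCMS animals 2 and 3 and 7.23, 5.87 and 6.37 in control animals 5, 6 and 8, against 3.99 to 5.21 in the others (difference 1.72, limma adjusted p = 0.00401). Itpripl1 rose by 1.22 and Mdfic, which carries a MyoD family inhibitor domain, by 1.02. Angptl2, a secreted angiopoietin-like protein, rose by 0.83 and was the single gene of the 22 whose groups overlapped, with 4.092 in control animal 8 and 4.094 at the top of the others. Ormdl2, of the family that restrains sphingolipid synthesis, rose by 0.45, and 66.7% of its exon bases overlap Dnajc14 on the opposite strand, which differed by -0.04.

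**Figure D4:**
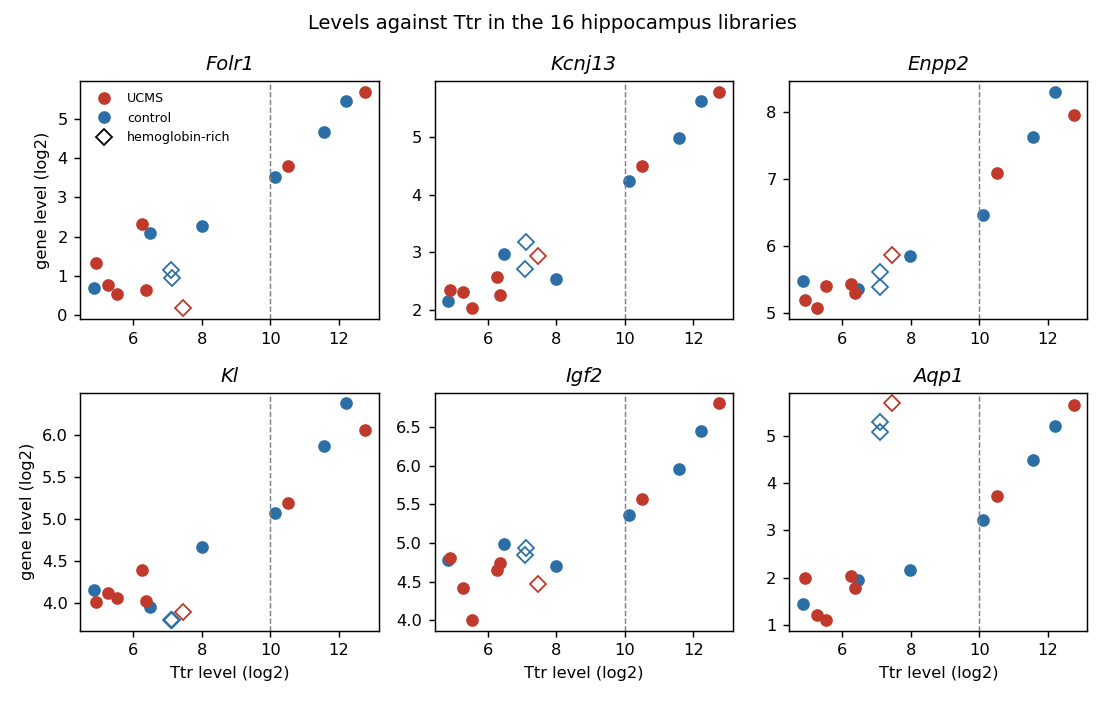
Level of 6 genes against the Ttr level (both log2, as deposited) in the 16 hippocampus libraries, with UCMS in red, control in blue and hemoglobin-rich libraries as open diamonds; the dashed line is the Ttr threshold of 10. Folr1, Kcnj13, Enpp2, Kl and Igf2 are high right of the line, and Aqp1 is also high in the 3 open diamonds, at 5.09 to 5.69.

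Just outside the threshold, control animal 3 had the highest Ttr of the 11 others, at 7.99. Its Cldn2 of 3.79, Kl of 4.66 and Tmem72 of 3.26 were the highest of the 11 too, while its Kcnj13 of 2.53 was their median. Control animal 6, just inside, had 4.61, 5.06, 4.79 and 4.24 for the same genes. The genes named here are a selection. Summed over all choroid lists, the level of control animal 3 was 11.49, within the 11.40 to 11.60 of the 11 and not their highest. In control animal 6 that sum was 11.70.

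Within the 11 low-Ttr libraries, the slope of each gene on Ttr with treatment as a covariate passed for 0 of 14014 genes in limma, and 958 (6.84%) had an unadjusted p under 0.05. The second count ran from 718 without UCMS animal 6 to 1697 without control animal 3, the highest of the 11 for Ttr. Among the 22 genes, 17 had a positive slope, against 39.8% of all genes tested, and 4 had an unadjusted p under 0.05. Sostdc1 gained 0.61 per log2 unit of Ttr (SE 0.120; unadjusted p = 0.000383, adjusted 0.637), and 0.62 without the hemoglobin-rich libraries. Members of some lists of other cells shared a direction along the same slope. Red blood cell genes had a positive slope in 5 of 5 members, all 5 at an unadjusted p under 0.05, with a median of 2.09. The 3 hemoglobin-rich libraries had Ttr at 7.09 to 7.46, in the upper part of the 11. Microglia and macrophage genes had a positive slope in 12 of 12 members, 1 of them at an unadjusted p under 0.05. General neuron genes had one in 0 of 10, with 3 at an unadjusted p under 0.05. Their part in the slopes of the 22 genes was not tested.

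Within each treatment the 22 genes are given as a description, since they were chosen for their difference in the same libraries. Sostdc1 differed by 3.85 among UCMS animals and 3.74 among control animals, Enpp2 by 2.14 among UCMS and 1.92 among control animals, and Kcnj13 by 2.74 among UCMS and 2.25 among control animals. The difference was larger among UCMS animals for 16 of the 22 and larger among control animals for 6, among them Prlr with 1.06 in UCMS and 1.79 in control animals. The signed difference was more positive among UCMS animals for 53.5% of all genes tested, a share that includes genes lower in the Ttr-high libraries. Fitted in UCMS animals only, 6 genes passed, and in control animals only 0 passed, with 774 at an unadjusted p under 0.05. A test of unequal differences, the interaction of Ttr group and treatment in limma, passed for 0 of 14014 genes, with 2231 (15.9%) at an unadjusted p under 0.05, 1 of the 22 among them. This test rested on 2 UCMS libraries with high Ttr: without UCMS animal 2 it passed for 4434 genes, and without control animal 2 for 1.

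UCMS animal 3 stood apart from the other hippocampus libraries, with a mean Pearson correlation of 0.916 with them across genes, against 0.941 to 0.962 for the rest. It also had the highest Ttr. Without it 23 genes passed, 21 of them among the 22, and the differences of Sostdc1, Cldn2 and Kcnj13 remained above 2. Car12 was the gene lost without it (limma adjusted p = 0.113). When each of the 16 libraries was left out in turn, 17 of the 22 genes passed in all 16 fits. Car12 was also lost without control animal 5 or 8 (highest adjusted p = 0.0743) and Slc4a2 without control animal 5 or 8 (highest adjusted p = 0.0743). Igfbp2 was lost without control animal 5 (adjusted p = 0.0743), Prlr without control animal 8 (adjusted p = 0.0526) and Slc31a1 without UCMS animal 2 (adjusted p = 0.0582). Without the 3 hemoglobin-rich libraries, Igfbp2, Car12 and Slc4a2 did not pass.

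The study's own comparison, UCMS minus control in hippocampus, passed for 0 genes in limma, without the Ttr group as a covariate (0 of 14015, 414 or 2.95% at an unadjusted p under 0.05), with it (0 of 14014, 546 or 3.9%) and in the 11 low-Ttr libraries alone (0 of 14014, 571 or 4.07%). With 1 library left out in turn, the unadjusted counts ran from 336 to 688, 416 to 845 and 433 to 999. Each was highest without UCMS animal 6. The covariate moves each UCMS value by a fixed share of the gene's Ttr-group difference, so for the 22 genes, chosen for that difference, the shift follows from the choice. Without it 2 of them were higher and 20 lower in UCMS animals, with a median of -0.24, and with it 9 were higher and 13 lower, with a median of -0.04. Over all genes tested, 50.1% and 50.2% were higher, with medians of 0.000375 and 0.000579. Sirt4, a mitochondrial sirtuin with the smallest unadjusted p of the first fit, 0.000106, differed by 0.32 without the covariate, 0.32 with it and 0.31 in the low-Ttr libraries. Lipt1, a lipoyl transferase, had the smallest adjusted p in the low-Ttr libraries, 0.297, with a difference of 0.56.

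In the other regions of the same animals, grouped by their hippocampal Ttr, 0 genes passed in limma. In prefrontal cortex 365 of 14127 genes (2.58%) had an unadjusted p under 0.05. Of the 22 genes 19 were tested there, 2 with higher and 17 with lower values, while 53.9% of all genes tested were higher, and the median was -0.15. Except for Igfbp2, Angptl2 and Ormdl2, each of these 19 was highest in control animal 2, which was in the low-Ttr group. Kl was 7.04 there and at most 4.05 in the rest, and Enpp2 was 8.03 and at most 6.22. How the signs fall without this animal was not tested. In hypothalamus 521 of 14539 genes (3.58%) had an unadjusted p under 0.05, and 18 of 21 tested genes had higher and 3 lower values, while 52.1% of all genes tested were higher, with a median of 0.14.

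Members of some lists of other cells shared a direction between the same groups of animals. In prefrontal cortex, myelin genes had lower values in 12 of 12 tested members, with a median of -0.29, endothelial genes in 10 of 11 and red blood cell genes in 5 of 5. In these lists 0 members had an unadjusted p under 0.05. In hypothalamus, meninges and fibroblast genes had higher values in 13 of 13 tested members, with a median of 0.33, myelin genes in 12 of 12 and pericyte genes in 7 of 8. Here too 0 members had an unadjusted p under 0.05. Red blood cell genes there had lower values in 5 of 5, with a median of -3.78 and 4 at an unadjusted p under 0.05. None of these genes passed in limma, and their part in the values of the 22 genes was not tested.

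Sostdc1 in hypothalamus was 3.57 and 4.17 in UCMS animals 2 and 3 and 4.19, 4.45 and 4.56 in control animals 5, 6 and 8, a mean of 4.19 ± 0.383 (SD, n = 5). The other 11 animals averaged 4.18 ± 0.314 (SD, n = 11), and the groups overlapped. Enpp2 in hypothalamus averaged 6.13 ± 0.390 (SD, n = 5) in the 5 animals and 6.11 ± 0.292 (SD, n = 11) in the other 11. In prefrontal cortex Enpp2 averaged 5.77 ± 0.178 (SD, n = 5) in the 5 animals and 6.10 ± 0.662 (SD, n = 11) in the other 11.

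**Figure D5:**
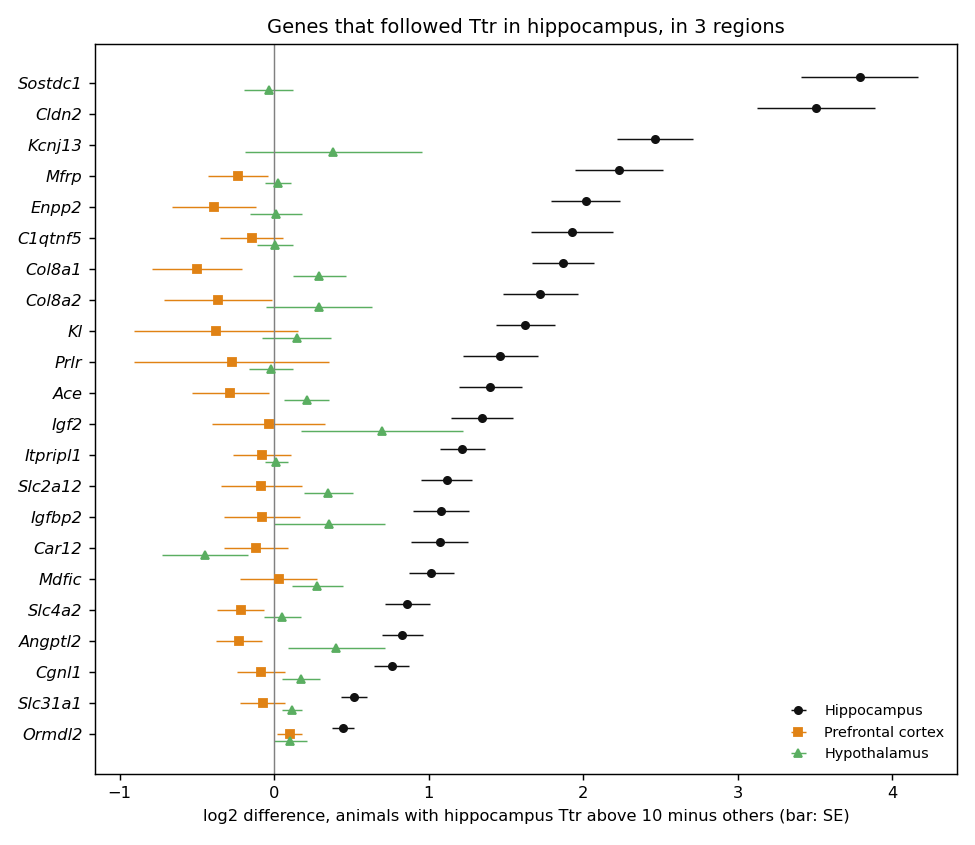
Log2 difference between animals with hippocampal Ttr above 10 and the other animals for the 22 genes, in hippocampus, prefrontal cortex and hypothalamus; bars are standard errors, and only tested genes are drawn in a region. The hippocampus points run from 0.45 to 3.79, while in prefrontal cortex 17 of 19 points lie below 0 and in hypothalamus 18 of 21 above 0. Most of the genes drawn for prefrontal cortex were highest there in control animal 2, which was in the low-Ttr group.

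Whether the difference was unequal between regions was tested on within-animal differences of levels. For hippocampus minus hypothalamus, 7 of 13738 genes (0.051%) passed in limma, and 846 (6.16%) had an unadjusted p under 0.05. Of the 7, 6 were positive (0.0437%) and 1 negative (0.00728%). Sostdc1 differed by 3.82, Mfrp by 2.20, Enpp2 by 2.002, C1qtnf5 by 1.92 and Itpripl1 by 1.20, with adjusted p-values of 0.000485 to 0.00414. Clic6 at 2.68 and a numbered gene model at -0.61 were the other 2. The negative call passed in 3 of the 16 fits that leave out 1 animal (adjusted p up to 0.340) and Clic6 in 14 (up to 0.220). Without the hemoglobin-rich animals 4 genes passed. The 22 genes were chosen on the same hippocampus values, so the sign of these differences is not separate evidence; the median of the 21 tested was 1.20.

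For hippocampus minus prefrontal cortex, 3 of 13750 genes (0.0218%) passed and 692 (5.03%) had an unadjusted p under 0.05. These were Mfrp at 2.46, Enpp2 at 2.41 and Col8a1 at 2.37, with limma adjusted p-values of 0.0285, 0.0285 and 0.0451. The median of the 20 tested genes of the 22 was 1.34, which rests on the same choice. These 3 calls were not stable: 0 genes passed without the hemoglobin-rich animals, and 0 to 8 when animals were left out in turn, with 0 without UCMS animal 1, 3 or 6 or control animal 1, 4, 5 or 7, 1 without control animal 8, 5 without control animal 2 and 8 without UCMS animal 2.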

How the data were processed

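RNA was sequenced from brain tissue after depletion of ribosomal RNA, from 100 ng of total RNA with a directional kit, per the labels' protocols. Build GRCm38.p4 is named per the submitters' processing notes; aligner, counter and strand setting: not given in the sources used here. For each tissue, the authors deposited a table of normalized levels. The deposited values were read as log2 levels, quantile normalized between libraries; both were inferred from the values (range 0.174 to 18.5 in hippocampus, 89.4% of ranks equal within 0.002 across libraries). Depth is therefore unknown, levels cannot be compared between genes, and the number of libraries limits precision. There were 0 columns without a sample, and 115 of 15573 hippocampus genes had no symbol.

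Differences were computed with limma 3.58.1 in R 4.3.3 on these values (two-sided, trended prior variance) after leaving out the 10% of genes with the lowest mean (below 3.18 in hippocampus), with Benjamini-Hochberg adjustment over all genes tested. Libraries were grouped by a measured gene, Ttr, which was left out. The fit was checked on simulated data with normal noise, independent between genes and libraries. Of 50 genes changed by each size, it recovered 68% at 0.5, 96% at 1, 98% at 2 and 100% at 3 log2 units. There were 7 false calls among 14014 genes. Genes of the real libraries move together, so these figures are not error rates of the real fit. Single values were compared with exact tests. Each animal gave 1 library per region; p-values measure the spread between animals. The members and the 24 gene lists were chosen with earlier results of these data known. Named were Ttr, choroid list members past the threshold, the largest changes past it, and up to 4 members of other lists with the largest differences; single further members were named after their values were seen. Gene coordinates and overlaps are from GENCODE M21 (GRCm38), and promoters from RefSeq. Other normalizations, filters, prior variances, covariates and left-out libraries were tried. Blood libraries were not analysed here.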

Additional observations from a re-analysis of the deposited data

Results flagged for a closer look

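In groups of 8 animals of 1 treatment and region, the highest or lowest library stood apart from its group by Dixon's criterion in 22 of 136 groups examined (16.2%), where chance gives about 1 in 20, or 6.8. The groups share libraries and the genes move together, so the flags are not independent. The genes examined were Ttr and the 22 that followed it, chosen on the same hippocampus values. The chance share therefore does not apply to the hippocampus flags.

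Most of them, 12, were 1 library, the prefrontal cortex of control animal 2. There Ttr was 11.8, Sostdc1 7.84, Kcnj13 5.72, Mfrp 6.65, Enpp2 8.03 and C1qtnf5 5.57. In the same library Col8a1 was 6.12, Kl 7.04, Ace 4.47, Slc2a12 6.03, Mdfic 6.03 and Slc4a2 4.77. The nearest other control library stood at 7.44 for Ttr, 3.73 for Sostdc1, 3.23 for Kcnj13 and 4.05 for Kl. The hippocampus library of the same animal had the lowest Ttr of the 16.

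Another 7 were the hippocampus library of UCMS animal 3, which had the highest Ttr of its region. Among UCMS animals it stood apart for Mfrp at 6.20, C1qtnf5 at 5.77, Ace at 5.19, Igfbp2 at 6.72, Car12 at 5.14, Slc4a2 at 4.82 and Cgnl1 at 5.77. The next UCMS library stood at 4.24 for Mfrp and 3.71 for Ace. The remaining 3 were C1qtnf5 at 4.74 and Mdfic at 3.29, the highest and the lowest value of their UCMS group, both in the prefrontal cortex of UCMS animal 5, and Ace at 4.55 in the hypothalamus of UCMS animal 2.

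Differences between animals with high and low hippocampal Ttr were unequal between regions in 10 tests. For hippocampus minus prefrontal cortex these were Mfrp at 2.46, Enpp2 at 2.41 and Col8a1 at 2.37. For hippocampus minus hypothalamus they were Sostdc1 at 3.82, Clic6 at 2.68, Mfrp at 2.20, Enpp2 at 2.002, C1qtnf5 at 1.92, Itpripl1 at 1.20 and the gene model Gm14288 at -0.61, the single negative value. With 1 animal left out in turn, the prefrontal cortex calls held in 8 (Mfrp), 8 (Enpp2) and 4 (Col8a1) of 16 fits. That of Gm14288 held in 3 and that of Clic6 in 14. The groups and most of these genes were chosen on the same hippocampus values.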

How the results depend on the processing

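The count of 22 genes that followed Ttr stayed within 1.5 times under another prior variance, a robust fit, an adjusted p of 0.01, centring on housekeeping genes, a fit with no treatment term and one without hemoglobin-rich libraries. It was 38 with no gene left out, 13 with the lowest 25% left out, 50 with Ttr as a continuous covariate, 6 in UCMS animals only and 0 in control animals only (774 at an unadjusted p under 0.05). Leaving out each animal in turn gave 20 to 33. The count of 33 was without control animal 6, the Ttr-high library nearest the threshold. With library numbers as a replicate block it was 10, of which 9 were among the 22. UCMS and control libraries of 1 number share only that number; correlations of their deviations ran from -0.303 to 0.518, above 0.1 for numbers 2, 4 and 8, and 0 of 8 were closest to their own number. With the block the slope on Ttr among low-Ttr libraries passed for 20 genes, where the fit without it gave 0, and leaving out each animal gave 0 in each fit. For hippocampus minus prefrontal cortex the count of 3 became 5 with the lowest 25% left out, 0 at an adjusted p of 0.01, 0 without the hemoglobin-rich animals and 0 to 8 without each animal. For hippocampus minus hypothalamus the count of 7 became 12 with no gene left out, 4 with the lowest 25% left out, 4 without the hemoglobin-rich animals, 3 with the block and 5 to 9 without each animal. The interaction count ran from 0 to 4434 and the UCMS count in low-Ttr libraries from 0 to 1, the 1 without control animal 1. The Ttr difference ran from -1.87 to -0.92 in prefrontal cortex, with -0.92 without control animal 2, and from -0.51 to -0.16 in hypothalamus. The p of Fisher's exact test for Ttr group and treatment ran from 0.569 to 1.0. Of the 22 genes, 0 changed the sign of their hippocampus difference between Ttr groups in any fit of that comparison. Their signs in the other regions were not followed across fits. Counts at an unadjusted p under 0.05 moved more: that of genes following Ttr ran from 782 without UCMS animal 3 to 1702 without UCMS animal 2. The causes of these shifts were not tested. Depth is unknown, so no limit from counting can be given for genes near the bottom of the table.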

Other observations

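In the prefrontal cortex library of control animal 2, 40 of 67 choroid list members other than Ttr (59.7%) had their highest value among the 16 prefrontal cortex libraries, against 12.3% of all 15697 genes. Prlr was 8.24 there and at most 6.36 in the other 15, and Clic6 was 7.08 there and at most 5.31. Col8a2 was 7.07 against at most 5.60, and Itpripl1, on no list, was 5.30 against at most 4.61. Genes of other lists stood out in the same library: Zic1, of the thalamus and septum lists, was 8.09 against at most 6.79, Isl1, of the striatum list, 6.42 against 5.43 and Fam216b, of the cilia list, 5.30 against 4.81. Zic4, a choroid list member, was 6.16 against 4.86. Cux2 of the neocortex list at 3.34, Cck of the interneuron list at 6.58 and Mpped1 of the hippocampal field list at 5.62 were at their lowest there. These genes were chosen after their values were seen, and their part in the choroid values was not tested. Ormdl2 was 4.31, within the 4.03 to 4.64 of the others. This animal was in the low-Ttr group of the hippocampus comparison, and without it the prefrontal cortex values of Ttr differed by -0.92.

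Otx2 values are given by animal as a description, with no test. In hippocampus, prefrontal cortex and hypothalamus it was 5.44, 4.98 and 5.58 in control animal 8, and 4.68, 5.34 and 5.32 in UCMS animal 2. It was 3.61, 5.49 and 5.61 in UCMS animal 1 and 4.04, 5.91 and 4.15 in control animal 2, both with low hippocampal Ttr. In control animal 3 it was 1.86, 1.67 and 1.90, and in UCMS animal 4 it was 1.69, 1.53 and 1.88. Control animal 6, with high hippocampal Ttr, had 2.18, 1.92 and 2.44, and UCMS animal 8 had 4.89, 5.84 and 3.62. These 8 animals were picked after their values were seen.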
